A study of Homo sapiens with 8 samples.

Results

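The HOX cluster genes analysed here were the protein-coding rows of the count matrix whose symbol is HOXA, HOXB, HOXC or HOXD followed by a number. The rule found 39 genes among 60676 Ensembl identifiers: 11 HOXA, 10 HOXB, 9 HOXC and 9 HOXD. The counts came from aggregates of IGR-N91, an established human neuroblastoma (NB) line, formed in hanging drops and collected after 20 h (24 h in the design text of the series). The study asked how NB cells respond to soluble cues from the embryonic tissues that derive from the neural crest. One group was held in control medium, without ganglia. The E8-cSGcm and E8-cDRGcm groups received medium in which ganglia of E8 chick embryos had been cultured, sympathetic (SG) for the first and dorsal root (DRG) for the second, and the E15.5-mSGcm group received medium from SG of E15.5 mouse embryos. Each group had 2 libraries, all groups shared the same line and drop culture, and all 3 media were compared with the same 2 control libraries. The count columns of the control libraries are labelled E8, like those of the chick media. No control is labelled E15.5. The labels do not say that replicates came from separate cultures, so the p-values measure the spread between these libraries, which may be technical.

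HOX genes encode homeodomain transcription factors that give cells their position along the head-to-tail axis of the embryo. They lie in 4 clusters, where genes near the 3′ end (low numbers) act in the hindbrain and neck and genes near the 5′ end (high numbers) in the lumbar, sacral and limb regions, and genes with the same number in different clusters are paralogs. Trunk neural crest, which gives rise to the sympathetic ganglia and to NB, carries a HOX code of its level of origin. Silent HOX genes are held by Polycomb complexes and active ones by trithorax complexes, and HOX proteins bind DNA with PBX and MEIS cofactors.

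Total counts ran from 7930765 to 15060744 per library, and the 2 E15.5-mSGcm libraries were the shallowest. Of 12 noradrenergic neuroblast markers, 11 exceeded 3 counts in every group and CHGA was listed at 0. Their summed level was 3448 to 3511 CPM (counts scaled by library size) in control, 2510 to 2668 in E8-cSGcm, 2174 to 2228 in E8-cDRGcm and 2411 to 2461 in E15.5-mSGcm. Of the 11 tested, 4, 7 and 4 were called down in these 3 media and none up. The shares of all tested genes called down were 3.86%, 10.9% and 7.27%. Schwann cell markers summed to 1.12 to 4.10 CPM over all libraries, with SOX10 and FOXD3 among those at 0. Of 2 tested Schwann cell markers, ERBB3 was called up in E8-cDRGcm and E15.5-mSGcm, beside 9.81% and 6.65% of all tested genes. Endothelial and haematopoietic markers reached at most 1.61 and 1.41 CPM. Fibroblast markers summed to 417 to 428 CPM in control and 477 to 487 in E15.5-mSGcm. In that medium 4 of 7 tested fibroblast markers were called up and COL1A1 down, beside 6.65% of all tested genes up and 7.27% down. The part of these lists in the HOX results was not tested, and in bulk RNA fewer cells of a type and less RNA per cell cannot be told apart.

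The HOX reads counted in IGR-N91 were assigned to HOXB, HOXC and HOXD genes. Of the 39 genes, 16 passed the filter on low counts: HOXB2 and HOXB3, HOXC4, HOXC5, HOXC6, HOXC8 and HOXC9, and all 9 HOXD genes. All 11 HOXA genes had no read in any library, nor had HOXB4, HOXB5, HOXB6, HOXB8, HOXC11, HOXC12 and HOXC13, which makes 18 genes. The clusters lie (build GRCh37) on chromosome 7 for HOXA, at chr17:46605888-46806112 for HOXB, chr12:54332615-54449814 for HOXC and chr2:176957449-177055635 for HOXD. HOXB1, HOXB7, HOXB9 and HOXB13 had at most 3 counts in a library, and HOXC10, which acts in lumbar motor neurons, had 0 to 5. In the HOXC cluster the genes that passed were thus the anterior and thoracic ones, while in HOXD they spanned the cluster from HOXD1 to HOXD13.

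**Figure D1:**
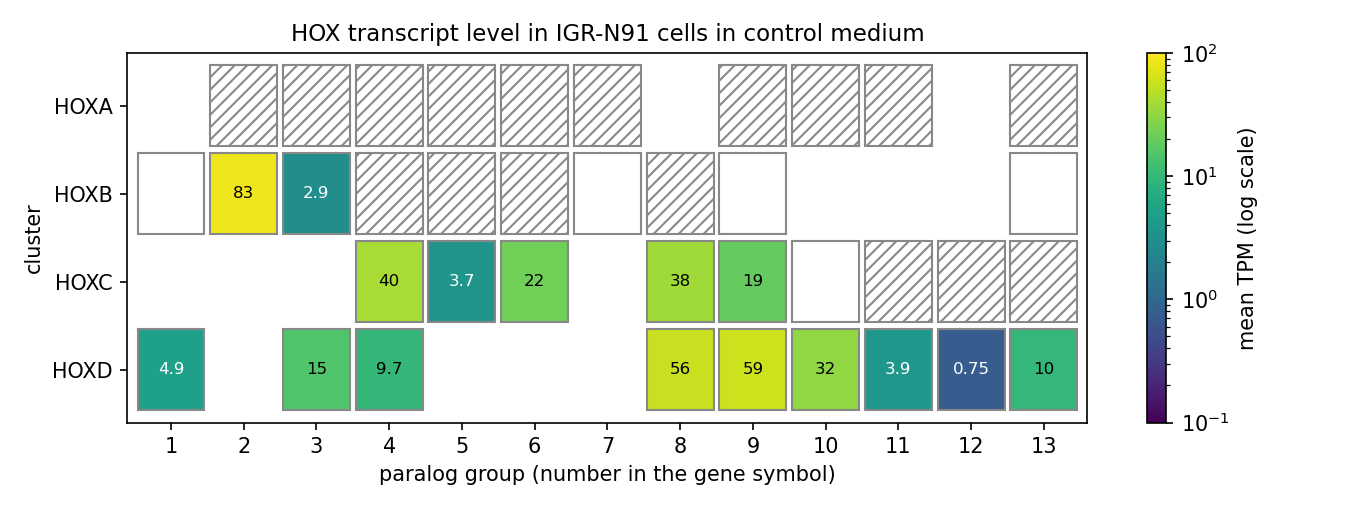
Mean TPM (counts scaled by gene length and library size, colour on a log scale, value in each box) of the HOX genes over the 2 control libraries, by cluster (rows) and paralog group (columns). Hatched boxes had no read in any of the 8 libraries, white boxes had reads but did not pass the filter, and an empty place has no gene or a gene not shown here. Every HOXA box shown is hatched, and all 9 HOXD boxes are filled.

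A count of 0 allows up to 3 counts per library, which for the 18 genes without reads corresponds to 0.123 to 0.966 TPM, depending on gene length and depth. HOXA lay at the start of a run of 31 annotated genes without a read, 319.9 kb long. Within 1 Mb of the cluster, 5 of 10 other protein-coding genes had at least 100 counts in every library, among them HIBADH and CBX3. A 0 in this table need not be an absent transcript: in the histocompatibility region of chromosome 6, 170 of 179 protein-coding genes were at 0, including the broadly expressed RING1, RXRB and PBX2, against 4118 of 19837 protein-coding genes (20.8%) in all. Whether mapping or counting also removed reads of the 18 HOX genes at 0 was not tested, so they are described as listed at 0.

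Compared per length in control medium, HOXB2 was the highest HOX gene at 82.9 ± 1.55 TPM (SD, n = 2). HOXB2 patterns the hindbrain. HOXD9 (58.7 ± 2.07 TPM) and HOXD8 (55.9 ± 2.41 TPM) followed and overlapped, then HOXC4 (40.5 ± 0.706 TPM) and HOXC8 (37.7 ± 3.44 TPM), which overlapped as well. HOXD10 stood at 31.8 ± 0.801 TPM, and HOXC6 (22.1 ± 0.860 TPM) overlapped HOXC9 (19.4 ± 2.96 TPM). HOXD3, HOXD13 and HOXD4 lay between 9.74 and 14.97 TPM, and HOXD13, the digit and genital gene, overlapped HOXD4. HOXD1, HOXD11, HOXC5 and HOXB3 lay between 2.87 and 4.95 TPM, and HOXD12 was lowest at 0.753 ± 0.415 TPM. No more than 28 reads in any library were counted for HOXC5 and 13 for HOXD12, and 67.3% of HOXC5 exonic bases are shared with other genes on the same strand. Their 95% intervals in E8-cSGcm, for example, ran from -1.20 to 0.20 (HOXC5) and from -0.78 to 1.39 (HOXD12) on the log2 scale. HOXC4, HOXC6, HOXD10 and HOXD11 share 16.1% to 21.4% of their exonic bases with other genes on the same strand. HOXB3 had 92 and 100 reads in control over 7425 exonic bases. The effect of overlap and annotated length on this order was not tested.

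Changes were called at an adjusted p under 0.05 (edgeR quasi-likelihood test, Benjamini-Hochberg over 16680 genes) and a fold change of at least 1.5. In E8-cDRGcm, 5 of the 16 tested HOX genes rose (HOXB2, HOXC8, HOXD1, HOXD4 and HOXD11) and HOXC6 fell, beside 9.81% of all tested genes called up and 10.9% called down. In E8-cSGcm, HOXD1 and HOXD11 rose and none fell, beside 4.73% of all genes up and 3.86% down. In E15.5-mSGcm, HOXB3 fell and none rose, beside 7.27% of all genes down and 6.65% up. Without the demand on fold change, 8 HOX genes rose and 2 fell in E8-cDRGcm (49.5% of all genes, either direction), 4 rose and 1 fell in E8-cSGcm (31.3%), and 1 rose and 4 fell in E15.5-mSGcm (37.8%). The median log2 fold change of the 16 genes was 0.11 in E8-cSGcm, 0.22 in E8-cDRGcm and -0.21 in E15.5-mSGcm, against 0.010, 0.0055 and -0.015 over all tested genes.

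**Figure D2:**
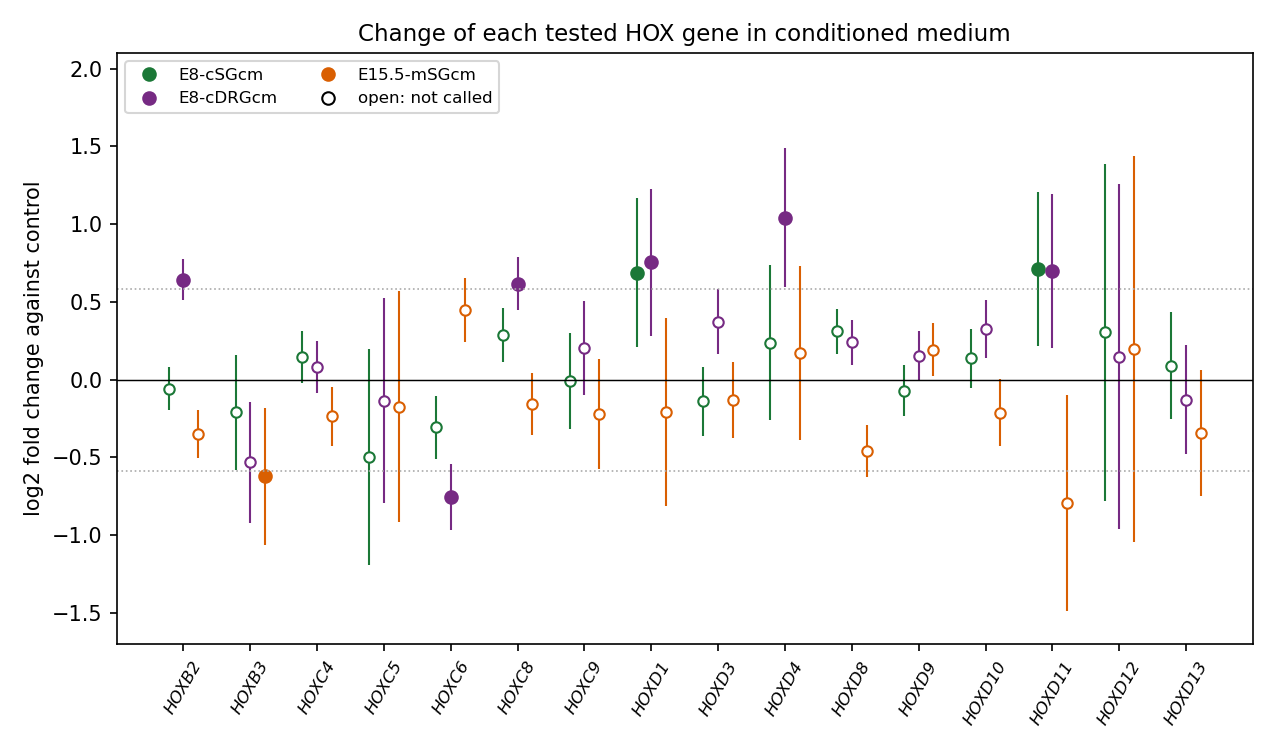
Log2 fold change against control (y axis) of the 16 tested HOX genes (x axis) in each conditioned medium, with 95% confidence intervals from the edgeR fit. Filled points were called, open points were not, and dotted lines mark a fold change of 1.5. E8-cDRGcm holds 6 of the 9 filled points, and HOXC6 lies below 0 in both chick media and above 0 in the mouse medium.

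In the HOXB cluster, HOXB2 was highest in the DRG medium. HOXB2 (ENSG00000173917) stood at 64.8 and 65.4 CPM in control, 64.5 and 60.5 in E8-cSGcm, 95.4 and 108 in E8-cDRGcm, and 52.0 and 50.2 in E15.5-mSGcm. Both E8-cDRGcm libraries lay above all others and both E15.5-mSGcm libraries below all others. It rose by 0.64 ± 0.0652 (SE) on the log2 scale in E8-cDRGcm (adjusted p = 1.59e-10, edgeR), and stood at -0.35 ± 0.0757 in E15.5-mSGcm (adjusted p = 3.13e-04), which is under the fold threshold. Without E8-cDRGcm replicate 2 the rise was 0.56, just under that threshold, with an adjusted p of 1.75e-07.

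HOXB3, which acts in the hindbrain next to HOXB2, was a low gene in all libraries. HOXB3 (ENSG00000120093) had 7.03 and 6.58 CPM in control, 5.77 and 5.95 in E8-cSGcm, 3.96 and 5.42 in E8-cDRGcm, and 5.00 and 3.88 in E15.5-mSGcm. All 6 conditioned libraries lay below both controls, and the conditioned groups overlapped each other in part. The log2 fold change was -0.62 ± 0.217 in E15.5-mSGcm (adjusted p = 0.0217, edgeR) and -0.53 ± 0.191 in E8-cDRGcm (adjusted p = 0.0197), the latter under the fold threshold. The E15.5-mSGcm call was lost without control replicate 1 (log2 fold change -0.58, adjusted p = 0.0878), without E15.5-mSGcm replicate 2 (-0.45, adjusted p = 0.25), with a correction for GC content and length (-0.50, adjusted p = 0.0677) and in DESeq2 (adjusted p = 0.124).

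In the HOXC cluster, HOXC6 and HOXC8, which mark cervical to thoracic levels, moved in opposite directions in E8-cDRGcm. HOXC6 (ENSG00000197757) had 23.9 and 24.9 CPM in control, 21.3 and 18.3 in E8-cSGcm, 13.9 and 15.02 in E8-cDRGcm, and 32.2 and 34.4 in E15.5-mSGcm. The 4 groups did not overlap, with E8-cDRGcm lowest and E15.5-mSGcm highest. HOXC6 fell by 0.75 ± 0.106 on the log2 scale in E8-cDRGcm (adjusted p = 1.89e-07, edgeR). Its changes of -0.31 ± 0.101 in E8-cSGcm (adjusted p = 0.0173) and 0.45 in E15.5-mSGcm (95% interval 0.24 to 0.65, adjusted p = 4.69e-04) passed the adjusted p but not the fold threshold. HOXC6 shares 16.1% of its exonic bases with HOXC4, HOXC9 and another gene on the same strand.

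HOXC8 (ENSG00000037965) had 27.4 and 30.7 CPM in control, 36.6 and 34.7 in E8-cSGcm, 45.5 and 43.95 in E8-cDRGcm, and 25.5 and 26.7 in E15.5-mSGcm. Both chick groups lay above control without overlap, and the mouse group lay below it. HOXC8 changed by 0.62 ± 0.0825 on the log2 scale in E8-cDRGcm (adjusted p = 7.08e-08, edgeR) and 0.29 ± 0.0852 in E8-cSGcm (adjusted p = 0.00838). Without control replicate 1 the E8-cDRGcm value was 0.54, under the fold threshold, with an adjusted p of 3.08e-05. Among the other HOXC genes, HOXC4, HOXC5 and HOXC9 were not called in any medium. HOXC4 passed the adjusted p but not the fold threshold in E15.5-mSGcm (-0.24 ± 0.0937 on the log2 scale, adjusted p = 0.0439, edgeR). HOXC9, a thoracic gene, stood at -0.01 in E8-cSGcm, 0.20 in E8-cDRGcm and -0.22 in E15.5-mSGcm on the log2 scale.

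The bases before the start of HOXD1, HOXD4 and HOXD11, the HOXD genes called against control, are shown because these genes rose in the same chick medium from different ends of 1 cluster. The sequences are the 250 bases upstream of each start on the + strand, from RefSeq on GRCh38.p14, at chr2:176188418-176188667 for HOXD1, chr2:176151300-176151549 for HOXD4 and chr2:176107030-176107279 for HOXD11. Windows were found for 20 of the 39 genes and for 10 of the 16 tested ones. Capitals mark matches on either strand to the CCAAT box (CCAAT), the E-box (CACGTG) or the PBX-HOX site (TGATTNAT).
HOXD1: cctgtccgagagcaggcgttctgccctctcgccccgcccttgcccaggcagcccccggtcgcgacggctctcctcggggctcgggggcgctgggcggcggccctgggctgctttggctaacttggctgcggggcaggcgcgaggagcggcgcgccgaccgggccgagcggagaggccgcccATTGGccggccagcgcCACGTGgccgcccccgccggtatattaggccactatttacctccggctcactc
HOXD4: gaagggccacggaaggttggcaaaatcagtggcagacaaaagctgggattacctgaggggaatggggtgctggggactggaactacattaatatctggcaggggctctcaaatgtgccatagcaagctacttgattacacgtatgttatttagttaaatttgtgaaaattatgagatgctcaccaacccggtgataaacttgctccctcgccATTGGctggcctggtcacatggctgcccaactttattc
HOXD11: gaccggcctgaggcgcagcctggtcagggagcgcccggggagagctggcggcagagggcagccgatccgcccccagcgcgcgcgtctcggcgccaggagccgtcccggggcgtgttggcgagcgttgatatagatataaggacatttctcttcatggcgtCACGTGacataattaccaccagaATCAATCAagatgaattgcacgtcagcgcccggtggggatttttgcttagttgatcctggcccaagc
HOXD1 and HOXD4 held a CCAAT box, present in 32% of 34943 RefSeq windows of this length and in 17 of 26 HOX windows. HOXD1 and HOXD11 held an E-box, present in 6.32% of them and in 8 of 26 HOX windows. HOXD11 also held a PBX-HOX site, present in 2.49% of all windows and in 2 of the 26 HOX windows, the other being HOXA2. TATAAA was in none of these 3 windows (10.8% of all windows), and TGACGTCA and the DR5 retinoic acid element were in no HOX window (1.63% and 0.00286% of all windows). The windows of the tested HOX genes held a median of 21 CpG dinucleotides and those of the untested HOX genes 19, against 11 over all windows, but HOXD4 held only 4 and HOXD1 31. These matches are a description of letters and not of bound factors.

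In the HOXD cluster, the genes called were HOXD4 and HOXD1 near the 3′ end and HOXD11 toward the 5′ end. HOXD4 (ENSG00000170166), a hindbrain and neck gene, had 3.59 and 3.49 CPM in control, 5.69 and 2.80 in E8-cSGcm, 7.48 and 7.11 in E8-cDRGcm, and 3.97 and 4.00 in E15.5-mSGcm. The 2 E8-cDRGcm libraries were the highest, and the 2 E8-cSGcm libraries lay on either side of control. HOXD4 rose by 1.04 ± 0.221 on the log2 scale in E8-cDRGcm (adjusted p = 1.60e-04, edgeR), the largest of the HOX genes against control, and it kept its call under all 16 alternatives.

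HOXD1 (ENSG00000128645), which in the mouse shapes the connections of pain-sensing neurons, had 2.68 and 3.29 CPM in control, 6.01 and 3.78 in E8-cSGcm, 5.31 and 4.83 in E8-cDRGcm, and 2.43 and 2.74 in E15.5-mSGcm. All 4 chick-medium libraries lay above control, and the mouse-medium libraries overlapped it. The log2 fold change was 0.69 ± 0.235 in E8-cSGcm (adjusted p = 0.0224, edgeR) and 0.75 ± 0.233 in E8-cDRGcm (adjusted p = 0.00669). These calls rested on few reads (19 to 75 per library). The E8-cSGcm value dropped to 0.34 (adjusted p = 0.43) without E8-cSGcm replicate 1 and to 0.56 (adjusted p = 0.156) without control replicate 1, and the E8-cDRGcm call was lost without control replicate 1 (adjusted p = 0.0704) or E8-cDRGcm replicate 1 (adjusted p = 0.0574). DESeq2 called neither (adjusted p = 0.131 and 0.0644).

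HOXD11 (ENSG00000128713), a gene of the lumbosacral axis and forelimb, had 2.75 and 2.50 CPM in control, 4.33 and 4.27 in E8-cSGcm, 3.74 and 4.76 in E8-cDRGcm, and 1.02 and 1.94 in E15.5-mSGcm. Both chick groups lay above control and the mouse group below it, with no overlap. The log2 fold change was 0.71 ± 0.244 in E8-cSGcm (adjusted p = 0.0225, edgeR), 0.70 ± 0.244 in E8-cDRGcm (adjusted p = 0.0162) and -0.79 ± 0.343 in E15.5-mSGcm (adjusted p = 0.0652). The E8-cSGcm call was lost when any of the 4 libraries compared was left out (adjusted p 0.056 to 0.143, log2 fold change 0.64 to 0.78). The E8-cDRGcm call was lost without control replicate 2 (adjusted p = 0.104) or E8-cDRGcm replicate 2 (0.52, adjusted p = 0.192), and DESeq2 called neither. HOXD11 shares 21.4% of its exonic bases with HOXD10.

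HOXD8 was called in no comparison with control, but it had the smallest adjusted p of any HOX gene in both SG media. HOXD8 (ENSG00000175879) stood at 45.95 and 48.0 CPM in control, 56.7 and 59.9 in E8-cSGcm, 55.8 and 55.3 in E8-cDRGcm, and 33.6 and 34.7 in E15.5-mSGcm. Its log2 fold change was 0.31 ± 0.0706 in E8-cSGcm (adjusted p = 7.31e-04, edgeR), 0.24 ± 0.0710 in E8-cDRGcm (adjusted p = 0.00481) and -0.46 ± 0.0827 in E15.5-mSGcm (adjusted p = 2.5e-05). HOXD3 and HOXD10 passed the adjusted p in E8-cDRGcm, with log2 fold changes of 0.37 ± 0.103 and 0.32 ± 0.0913. HOXD9, HOXD12 and HOXD13 passed it in no medium against control.

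**Figure D3:**
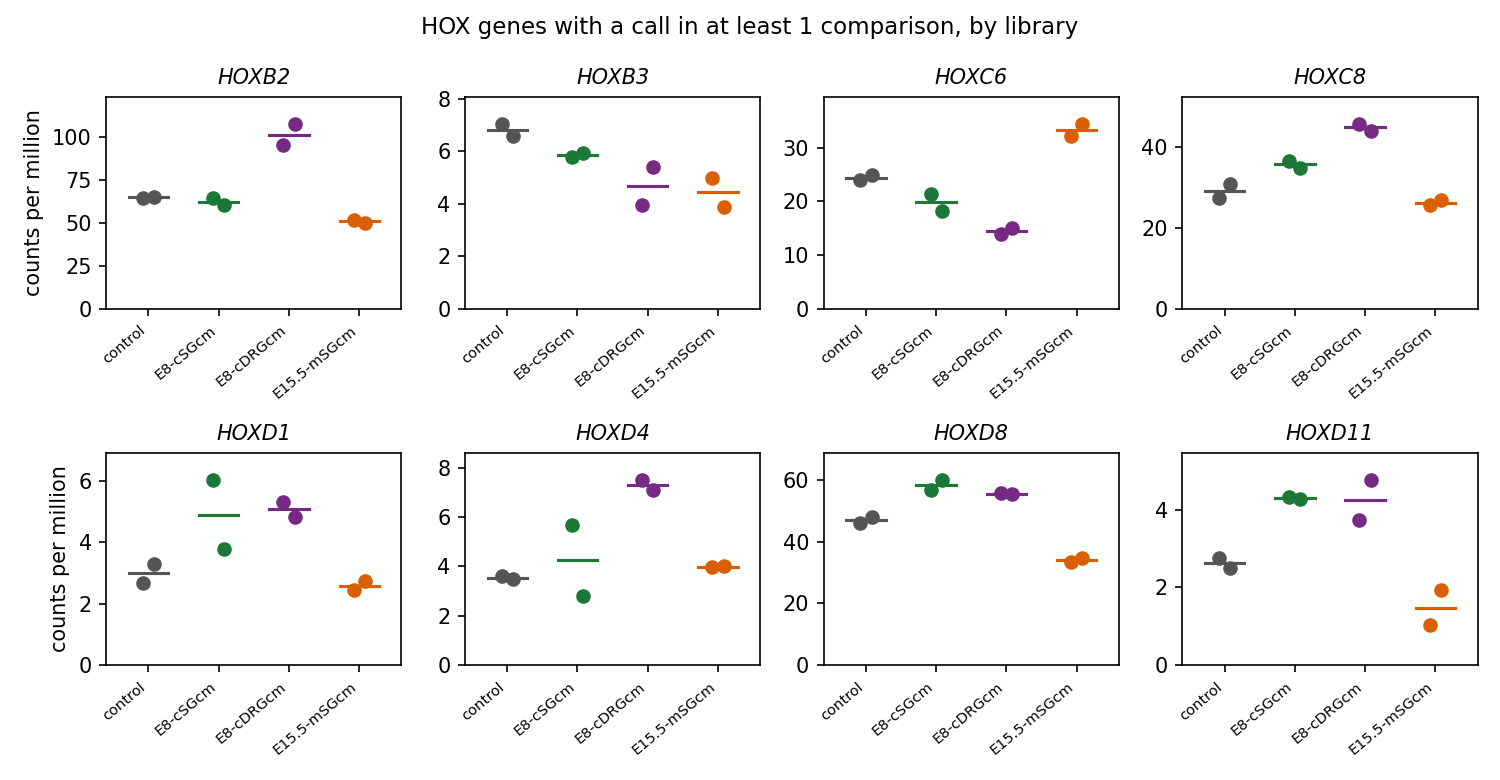
CPM on TMM library sizes (y axis, from 0) of the 8 HOX genes called in at least 1 of the 6 comparisons, in each library (points) with the group mean (line). HOXB2, HOXC8 and HOXD4 are highest in E8-cDRGcm, HOXC6 is lowest there and highest in E15.5-mSGcm, and the 2 E8-cSGcm points of HOXD1 and HOXD4 lie far apart.

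Summed over its members, each cluster changed less than its called genes. The HOXB sum was 72.0 ± 0.134 CPM in control (SD, n = 2), 68.5 ± 2.74 in E8-cSGcm, 106 ± 9.69 in E8-cDRGcm and 55.5 ± 2.1 in E15.5-mSGcm. HOXB2 made up most of it, and without HOXB2 the E8-cDRGcm sum was 0.672 of control instead of 1.48. The HOXC sum was 102 ± 0.0428 CPM in control, 107 ± 1.75 in E8-cSGcm, 111 ± 2.99 in E8-cDRGcm and 100.4 ± 2.29 in E15.5-mSGcm, so the opposite values of HOXC6 and HOXC8 were not seen in it. The HOXD sum was 143 ± 2.62 CPM in control, 158 ± 2.44 in E8-cSGcm, 173 ± 0.539 in E8-cDRGcm and 127 ± 2 in E15.5-mSGcm. The libraries of the 4 groups did not overlap for HOXD. HOXD held 44.4% to 47.5% of all HOX counts in every group, while the share of HOXB ran from 19.6% in E15.5-mSGcm to 27.2% in E8-cDRGcm.

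**Figure D4:**
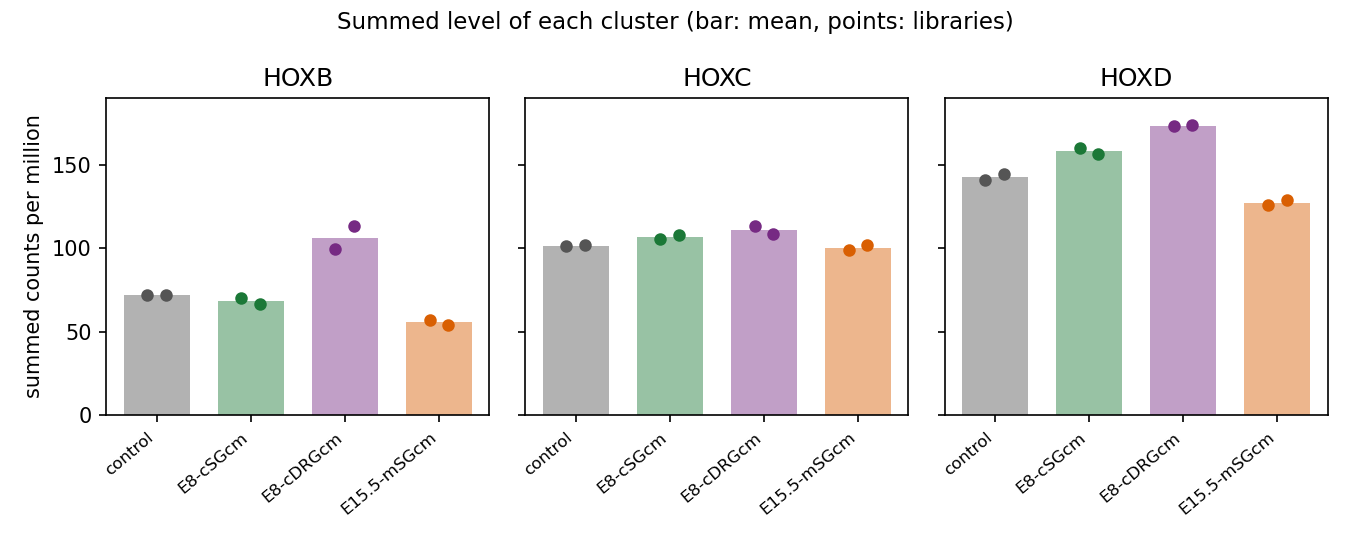
Summed CPM (y axis, from 0) of the HOXB, HOXC and HOXD genes in each group, with bars for the mean and points for the 2 libraries. HOXB is highest in E8-cDRGcm at 106 CPM, HOXC stays between 100.4 and 111 CPM, and HOXD runs from 127 CPM in E15.5-mSGcm to 173 CPM in E8-cDRGcm.

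The media were also compared directly. Between the chick media, HOXB2 (log2 fold change 0.70 ± 0.0659, adjusted p = 1.46e-10, edgeR) and HOXD4 (0.80 ± 0.217, adjusted p = 0.00424) were higher in E8-cDRGcm than in E8-cSGcm and no HOX gene was lower, beside 2.62% of all genes higher and 4.87% lower. The HOXD4 difference was 0.36 (adjusted p = 0.297) without E8-cSGcm replicate 2 and missed the threshold in DESeq2 (adjusted p = 0.0504). HOXD1 and HOXD11, called in both media, did not differ detectably between them, at 0.07 (95% interval -0.37 to 0.50) and -0.02 (-0.47 to 0.44).

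Between the SG media of the 2 species, HOXC6 was higher in E15.5-mSGcm than in E8-cSGcm and HOXD1, HOXD8 and HOXD11 were lower, beside 10.2% of all genes higher and 12.1% lower. HOXC6 differed by 0.76 ± 0.104 (adjusted p = 1.45e-07, edgeR), HOXD8 by -0.77 ± 0.0810 (adjusted p = 3.88e-10) and HOXD11 by -1.50 ± 0.315 (adjusted p = 1.21e-04) on the log2 scale. The HOXD11 value rested on 8 and 17 reads in the E15.5-mSGcm libraries and ran from -2.07 to -1.15 over the alternatives. HOXD1 differed by -0.90 ± 0.277 (adjusted p = 0.00661), and its call was lost without E8-cSGcm replicate 1 (-0.55, adjusted p = 0.158) or E15.5-mSGcm replicate 1 (adjusted p = 0.0543).

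Between E15.5-mSGcm and E8-cDRGcm, HOXC6 was higher in the mouse medium and 6 HOX genes were lower, beside 13.1% of all genes in each direction. HOXC6 differed by 1.20 ± 0.109 (adjusted p = 7.28e-12, edgeR), HOXB2 by -0.99 ± 0.0728 (adjusted p = 2.18e-14), HOXC8 by -0.78 ± 0.0928 (adjusted p = 5.25e-09) and HOXD8 by -0.70 ± 0.0814 (adjusted p = 2.65e-09). HOXD4 differed by -0.87, HOXD1 by -0.96 and HOXD11 by -1.49 on the log2 scale, HOXD11 again with 8 and 17 reads in E15.5-mSGcm. These 7 differences kept their call when any single library was left out. The comparisons share libraries, so they are not independent of those with control.

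The non-coding genes of the clusters include antisense partners of HOX genes. Of 21 in the table, 12 had no read, among them HOTAIR, HOTAIRM1 and HOTTIP, and 4 were tested: HOXB-AS1, HAGLR, HAGLROS and HOXD-AS2. In E8-cDRGcm, 2 of the 4 fell and none rose, in E15.5-mSGcm 1 fell, and in E8-cSGcm none was called, beside 10.9%, 7.27% and 3.86% of all tested genes called down in these media. HAGLR starts 96 bases before HOXD1 on the opposite strand in 1 of its 4 RefSeq windows, so the HOXD1 sequence above also holds this start of HAGLR.

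HAGLR had 17.3 and 15.1 CPM in control, 13.9 and 14.5 in E8-cSGcm, 8.75 and 8.94 in E8-cDRGcm, and 16.4 and 14.97 in E15.5-mSGcm. The 2 E8-cDRGcm libraries were lowest, without overlap, while HOXD1 was above control there. The log2 fold change of HAGLR was -0.86 ± 0.128 in E8-cDRGcm (adjusted p = 5.35e-07, edgeR). HOXD-AS2, antisense to HOXD8, fell by 1.06 ± 0.208 on the log2 scale in the same medium (adjusted p = 5.01e-05), from 7.42 and 5.66 CPM in control to 3.07 and 3.15. HAGLR lies opposite HOXD1 over part of the 60.1% of HOXD1 exonic bases that have an antisense gene, and HOXD-AS2 opposite 24.4% of those of HOXD8. The libraries were stranded, but the strand option of the counting is not given in the sources used here, so sense and antisense reads cannot be told apart where they overlap.

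HAGLROS had 11 and 23 reads in control, 11 and 13 in E8-cSGcm, 6 and 9 in E8-cDRGcm, and 0 and 3 in E15.5-mSGcm. It was called down in E15.5-mSGcm (adjusted p = 0.00495, edgeR), at counts too low for a stable fold change, and the call was lost without control replicate 2 (adjusted p = 0.0814) or E15.5-mSGcm replicate 1 (adjusted p = 0.0977). HOXB-AS1, antisense to HOXB2 and HOXB3, was called in no medium and stood at -0.09 ± 0.210 in E8-cDRGcm, where HOXB2 rose.

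**Figure D5:**
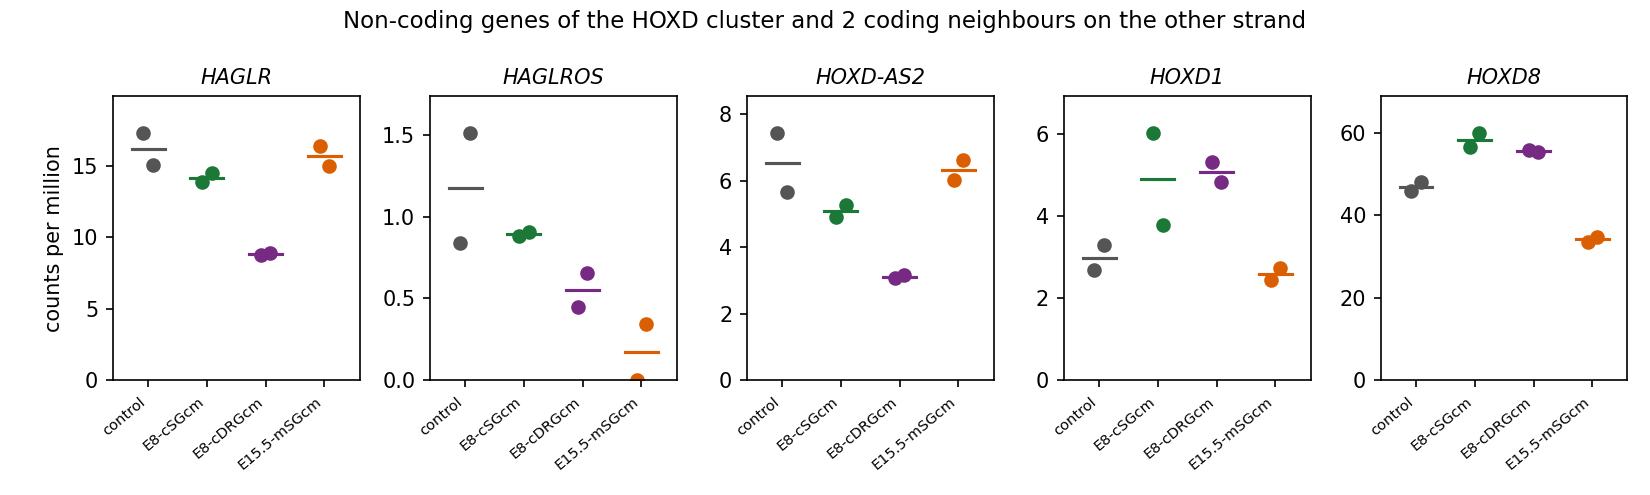
CPM (y axis, from 0) of the non-coding genes HAGLR, HAGLROS and HOXD-AS2 and of HOXD1 and HOXD8, in each library (points) with the group mean (line). HOXD1 and HOXD8 lie on the strand opposite HAGLR and HOXD-AS2, and on the same strand as HAGLROS. HAGLR and HOXD-AS2 are lowest in E8-cDRGcm, and HAGLROS is lowest in E15.5-mSGcm with 0 and 3 reads.

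Among the TALE homeodomain cofactors of HOX proteins, 7 of 9 were tested and PBX2 was listed at 0. Among the tested cofactors described here, MEIS3 and PBX4 fell in E15.5-mSGcm, beside 7.27% of all tested genes called down there. Neither MEIS3 nor PBX4 was called in a chick medium. MEIS3 went from 65.1 and 66.5 CPM to 41.6 and 37.2 in E15.5-mSGcm (log2 fold change -0.74 ± 0.0788, adjusted p = 9.51e-10, edgeR), and to -0.50 with a correction for GC content and length. PBX4 (-1.15 ± 0.396, adjusted p = 0.0189, edgeR) was not called in DESeq2 (adjusted p = 0.0921). It also lost its call without control replicate 1 (-1.08) or E15.5-mSGcm replicate 2 (-0.71).

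Of the complexes that hold HOX clusters silent or active, Polycomb repressive complex 2 (10 genes tested) and the MLL, trithorax and H3K27 demethylase genes (11 tested) had no member called against control in any medium. Of all tested genes, 4.73% were called up and 3.86% down in E8-cSGcm, 9.81% and 10.9% in E8-cDRGcm, and 6.65% and 7.27% in E15.5-mSGcm. By the adjusted p alone, 3 of the 10 genes of complex 2 were higher and 5 lower in E8-cDRGcm, with a median log2 fold change of -0.09 over the 10, beside 49.5% of all genes in either direction. The highest value was that of EZH2, the methyltransferase of the complex (0.49 ± 0.0579, adjusted p = 4.92e-09, edgeR). The lowest was that of its accessory subunit JARID2 (-0.49 ± 0.0672, adjusted p = 1.42e-07), which had 81.1 and 73.3 CPM in control and 55.6 and 54.5 in E8-cDRGcm. By the adjusted p alone, 5 of the 11 MLL, trithorax and H3K27 demethylase genes were higher and 2 lower in E8-cDRGcm. Their median log2 fold change there was 0.24. Of the tested genes of Polycomb repressive complex 1 described here, PCGF1 and PCGF5 rose and CBX8 fell in E8-cDRGcm, and PCGF5 rose in E15.5-mSGcm. CBX8 went from 18.0 and 19.2 CPM in control to 9.80 and 9.82 in E8-cDRGcm (-0.92 ± 0.122, adjusted p = 5.21e-08, edgeR). The PCGF5 call in E15.5-mSGcm was lost without control replicate 2 or E15.5-mSGcm replicate 2.

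Of the axial patterning regulators that act upstream of HOX genes, 5 of 10 were tested and CDX2, CDX4 and TBXT were listed at 0. Of the 5 tested, 1 fell in E8-cSGcm, 3 in E8-cDRGcm and 1 in E15.5-mSGcm, and none rose. The shares of all tested genes called down in these media were 3.86%, 10.9% and 7.27%. GDF11, a ligand that starts the trunk-to-tail transition, went from 155 and 159 CPM in control to 62.0 and 64.5 in E8-cDRGcm (-1.31 ± 0.0583, adjusted p = 2.01e-20, edgeR). In E15.5-mSGcm, GDF11 was at 226 and 240 CPM (0.57 ± 0.0540, adjusted p = 6.89e-11), under the fold threshold. LIN28B, an RNA-binding protein that blocks the maturation of let-7, fell in E8-cSGcm (-0.59 ± 0.0518) and E8-cDRGcm (-0.78 ± 0.0524), and the E8-cSGcm value moved under the fold threshold without control replicate 2 or E8-cSGcm replicate 1. CDX1 fell in E8-cDRGcm (-1.33 ± 0.348, adjusted p = 0.00152) and in E15.5-mSGcm (-1.06 ± 0.379, adjusted p = 0.0244). The latter call was lost without either control replicate, and without E15.5-mSGcm replicate 1 the value was -0.42 (adjusted p = 0.448, edgeR).

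Retinoic acid induces HOX genes in the order of their position. Of 11 tested genes of its pathway, 3 rose and 1 fell in E8-cSGcm, 1 rose and 1 fell in E8-cDRGcm, and 1 rose and 2 fell in E15.5-mSGcm. The shares over all tested genes were 4.73% up and 3.86% down in E8-cSGcm, 9.81% and 10.9% in E8-cDRGcm, and 6.65% and 7.27% in E15.5-mSGcm, so the pathway's E8-cDRGcm count lay near that of all genes. DHRS3, a retinaldehyde reductase, rose in E8-cSGcm (1.58 ± 0.189, adjusted p = 2.23e-08, edgeR) and E8-cDRGcm (1.61 ± 0.188, adjusted p = 3.45e-09), and ALDH1A3, which makes retinoic acid, fell in both (-0.92 ± 0.130 and -1.73 ± 0.145). STRA6, the retinol transporter, rose in E8-cSGcm (0.80 ± 0.0629). CRABP2, a retinoic acid carrier, rose there too (0.61 ± 0.0509), but moved under the fold threshold without control replicate 2 or E8-cSGcm replicate 2. A correction for GC content and length also put CRABP2 under it (0.56). RARB, a receptor that is itself a target of retinoic acid, rose in E15.5-mSGcm from 22.9 and 24.3 CPM to 51.6 and 57.4 (adjusted p = 2.02e-13), while the carrier CRABP1 (-0.79 ± 0.129) and the synthesis enzyme ALDH1A2 (-0.99 ± 0.268) fell. The ALDH1A2 call was lost without control replicate 2 or E15.5-mSGcm replicate 2.

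The genes that flank the clusters were compared in the same way. Of 15 tested neighbours, 2 rose and 1 fell in E8-cSGcm, 2 rose and 2 fell in E8-cDRGcm, and 1 rose in E15.5-mSGcm. Of all tested genes, 4.73% rose and 3.86% fell in E8-cSGcm, 9.81% and 10.9% in E8-cDRGcm, and 6.65% and 7.27% in E15.5-mSGcm, so the neighbours' E8-cDRGcm count lay near that of all genes. SNX10, on the HOXA side, rose from 7.80 and 7.17 CPM in control to 18.3 and 18.7 in E8-cSGcm and to 29.2 and 28.2 in E8-cDRGcm (1.94 ± 0.118, adjusted p = 1.87e-16, edgeR), while HOXA itself was listed at 0. CALCOCO2, beyond HOXB13, rose by 1.17 ± 0.0595 in E8-cDRGcm (adjusted p = 9.07e-19), and by 0.60 in E8-cSGcm, a call lost without control replicate 2 or E8-cSGcm replicate 2. CBX5, next to HOXC and encoding heterochromatin protein HP1 alpha, fell by 0.92 ± 0.0480 in E8-cDRGcm (adjusted p = 1.81e-18). EVX2, the homeobox gene next to HOXD13, was called down in both chick media and SKAP2, beside the HOXA cluster, up in E15.5-mSGcm, each at 2.06 CPM or less. The EVX2 calls were lost when either control, either library of the medium compared, or either E15.5-mSGcm library was left out. The SKAP2 call was lost without control replicate 1 or 2 or E15.5-mSGcm replicate 2 (0.75). DESeq2 did not call SKAP2 (adjusted p = 0.169) or EVX2 in E8-cDRGcm (adjusted p = 0.169). It gave no adjusted p for EVX2 in E8-cSGcm. LNPK and MTX2, which flank HOXD, were called in no medium.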

How the data were processed

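IGR-N91 aggregates were profiled in 8 RNA-seq libraries. Per the labels and methods, 50 ng of total RNA was made into stranded libraries, sequenced as 75 bp single reads and processed by the authors with bcl2fastq 2.17.1.14, cutadapt 1.9.1, TopHat2 2.1.0 and HTSeq 0.11.3. The deposited values are raw counts per Ensembl gene, not normalized or filtered. The methods name hg19 and the labels GRCh38. Strand option, annotation release and read filters are not given in the sources used here.

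Symbols, positions and exonic lengths came from GENCODE 44 mapped to GRCh37 (58611 identifiers matched). Genes passing filterByExpr (16680) were normalized by TMM and tested in edgeR 4.0.16 (R 4.3.3, robust quasi-likelihood fit over all 4 groups, Benjamini-Hochberg adjustment). Depths of 7930765 to 15060744 counts set the floor of 3 counts per library (0.197 to 0.384 CPM), which covers counting error only. TPM was computed from exonic length. All tested HOX genes were named, as were up to 4 called genes with the largest change from each other list, except a few that are not reported here. The HOX members, the 13 gene lists (159 genes, 155 in the table) and the tests were chosen with earlier results of these data known, the motifs and the check of genes at 0 after the counts were seen. The edgeR and DESeq2 steps were tested on simulated counts with known changes. Alternatives were DESeq2 1.42.0, RLE size factors, other filters, 2 groups only, adjusted p alone, a replicate block, thinning, a correction for GC content and length, and each library left out. The same alternatives for genes of the other lists were added after seeing the data. Plots used matplotlib 3.10.9.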

Additional observations from a re-analysis of the deposited data

Results flagged for a closer look

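HOX genes were picked here when they passed the adjusted p in opposite directions against control in a pair of media and the difference between those media was itself called by edgeR. HOXC6 met this for E15.5-mSGcm against E8-cDRGcm, with a difference of 1.20 ± 0.109 on the log2 scale (0.45 against -0.75 relative to control), and against E8-cSGcm, with 0.76 ± 0.104. HOXB2 met it for E15.5-mSGcm against E8-cDRGcm, at -0.99 ± 0.0728 (-0.35 against 0.64). HOXD8 met it for E15.5-mSGcm against E8-cSGcm, at -0.77 ± 0.0810 (-0.46 against 0.31), and against E8-cDRGcm, at -0.70 ± 0.0814 (-0.46 against 0.24). The E15.5-mSGcm libraries were also the shallowest, and each of these differences kept its call after thinning to the smallest library. The part of species, embryo stage and tissue in them was not tested, and species and stage changed together. Groups of 2 libraries allowed no search for single libraries that stand apart.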

How the results depend on the processing

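Counts of called HOX genes moved with the test and the threshold, and the cause was not tested. DESeq2 called 0 up in E8-cSGcm, 3 up in E8-cDRGcm, 0 down in E15.5-mSGcm and 1 up between E8-cDRGcm and E8-cSGcm. With 10 counts in every library or with thinning, 1 HOX gene was called up in E8-cSGcm (HOXD11 is not tested under the former), thinning gave 2 down in E8-cDRGcm, and the correction for GC content and length gave 0 down in E15.5-mSGcm. Adjusted p alone gave 4 up and 1 down in E8-cSGcm, 8 up and 2 down in E8-cDRGcm, 1 up and 4 down in E15.5-mSGcm, 5 up and 1 down for E8-cDRGcm against E8-cSGcm, 2 up and 7 down for E15.5-mSGcm against E8-cSGcm, and 10 down for E15.5-mSGcm against E8-cDRGcm. With 1 library left out at a time, calls up ranged from 0 to 2 in E8-cSGcm, from 3 to 5 in E8-cDRGcm and from 1 to 2 for E8-cDRGcm against E8-cSGcm, and calls down from 1 to 2 in E8-cDRGcm, 0 to 1 in E15.5-mSGcm, 2 to 3 for E15.5-mSGcm against E8-cSGcm and 6 to 7 for E15.5-mSGcm against E8-cDRGcm.

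Same-numbered libraries did not deviate together (correlations of -0.0437 to 0.042 over 6 pairs of groups). This cannot show whether they shared a culture or a day, which the labels do not give. The fit with the replicate block gave the same counts as without it: 2 up in E8-cSGcm, 5 up and 1 down in E8-cDRGcm, and 1 down in E15.5-mSGcm.

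Without its member with the most counts, the HOXB sum relative to control was 0.851 in E8-cSGcm, 0.672 in E8-cDRGcm (reversed) and 0.636 in E15.5-mSGcm, the HOXC sum 1.02 in E8-cSGcm and 1.07 in E15.5-mSGcm (reversed), and the HOXD sum 1.04, 1.23 and 0.973 in E8-cSGcm, E8-cDRGcm and E15.5-mSGcm. Thinning moved the HOXD ratios to 1.09, 1.19 and 0.878. Of 22 called changes of single HOX genes, no alternative reversed a direction.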
